A study of Mus musculus with 9 samples.

Results

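Notch receptors, ligands, the fringe enzyme Lfng and target genes were followed in the mammary arrays of the series: 10 genes (Notch1, Notch2, Notch3, Dll1, Jag1, Jag2, Lfng, Hes1, Hey1 and Nrarp) of the 18193 genes with a probe set of their own. They were followed through all 18 probe sets that the array's annotation gives to one of these symbols alone, of 45037 probe sets tested. RNA was measured in organoids from yMaSCs (yOrg in the labels), in organoids from MaSCs (Org) and in luminal differentiated cells (LD cells; Lum), with 3 arrays each that carry the letters A, B and C. The LD cells were EpCAM-high, CD49f-low and CD61-negative cells sorted from the glands of virgin C57BL/6J mice and lysed without culture. The yMaSCs came from LD cells that had been transduced with a doxycycline-inducible lentiviral vector for wild-type YAP, whereas the MaSCs were sorted from the gland. Both kinds of organoid grew inside Matrigel under the same medium, which held the growth factors EGF and bFGF, heparin, noggin (an antagonist of BMP) and R-Spondin1 (an enhancer of Wnt signaling), and for which no doxycycline is listed. Organoid growth and the change of cell state therefore cannot be told apart in any comparison with LD cells. The sources used here do not say whether the arrays of 1 kind came from separate mice, so the p-values measure the spread between these samples.

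Notch receptors are cut at the cell surface when a neighboring cell presents a Delta-like or Jagged ligand, and the released intracellular part joins the DNA-binding protein RBPJ in the nucleus and switches on targets such as Hes1, Hey1 and Nrarp. Fringe enzymes such as Lfng add sugars to the receptors and so change which ligands they respond to. In the mammary gland the pathway is known for its role in luminal cell fate, and Dll1 and Jag1 are known as ligands that basal cells can make.

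All values are log2 intensities as summarized by RMA, in which a step of 1 is a 2-fold change. The upper quartile of an array lay between 7.39 and 7.59 and the lower quartile between 3.47 and 3.59, and differences from values near the lower quartile are compressed. A probe set was called when its Benjamini-Hochberg adjusted p over all probe sets was under 0.05 in a limma fit of the 3 groups, and a gene was called by its probe set with the highest mean. The LD arrays held transcripts of other cells, although the sort included antibodies against lineage markers. The leukocyte marker Ptprc lay between 2.64 and 2.99 in the organoids, against 8.17 to 8.94 in LD cells, and 5 of 7 measured leukocyte markers were lower in both kinds of organoid. Array B of the LD cells stood apart: its 8 endothelial markers summed to 546 on the linear scale, against 116 and 131 in the other LD arrays, and its 8 fibroblast and pericyte markers to 6248, against 1503 and 2265. Of 8 basal markers, 7 were higher in organoids from yMaSCs and 6 in organoids from MaSCs. Their linear sums were 3355 to 6227 in organoids from yMaSCs and 3087 to 10582 in organoids from MaSCs, against 496 to 801 in LD cells. Of 9 luminal markers, 6 were lower and 2 higher in each kind of organoid than in LD cells. In bulk RNA, fewer cells of a type and less RNA per cell cannot be told apart.

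The promoters of called members are shown for the motifs of the pathway's own DNA-binding proteins and of the partner of YAP. The RefSeq table matched 8 of 10 members, all but Hes1 and Hey1. Each promoter runs from 250 bases before to 50 bases after the start, on the strand of the gene in GRCm38.p6. Capitals mark matches, on either strand, to 4 short motifs: GTGGGAA (the core bound by RBPJ), GGAATG (the core bound by TEAD, the DNA-binding partner of YAP), CACGTG (the E-box bound by Hes and Hey proteins) and CACNAG (the N-box bound by Hes proteins). Dll1 has 2 annotated starts, at chr17:15375774-15376073 and chr17:15376883-15377182, both on the minus strand. Nrarp lies at chr2:25180508-25180807 on the plus strand and Notch1 at chr2:26503773-26504072 on the minus strand. Lfng, at chr5:140607091-140607390 on the plus strand, is shown because it alone of the 9 promoters of members matched the RBPJ core.
Dll1, first start: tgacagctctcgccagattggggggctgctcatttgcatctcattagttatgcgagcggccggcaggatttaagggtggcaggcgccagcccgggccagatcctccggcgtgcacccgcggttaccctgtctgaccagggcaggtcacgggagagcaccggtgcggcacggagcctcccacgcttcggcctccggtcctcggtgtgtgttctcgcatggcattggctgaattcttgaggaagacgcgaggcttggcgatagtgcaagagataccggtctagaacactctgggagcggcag
Dll1, second start: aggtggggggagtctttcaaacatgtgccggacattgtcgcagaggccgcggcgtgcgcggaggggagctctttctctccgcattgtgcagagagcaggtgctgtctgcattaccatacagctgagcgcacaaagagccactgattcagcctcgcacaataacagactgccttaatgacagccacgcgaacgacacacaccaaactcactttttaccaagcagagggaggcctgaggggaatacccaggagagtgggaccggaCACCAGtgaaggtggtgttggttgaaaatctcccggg
Nrarp: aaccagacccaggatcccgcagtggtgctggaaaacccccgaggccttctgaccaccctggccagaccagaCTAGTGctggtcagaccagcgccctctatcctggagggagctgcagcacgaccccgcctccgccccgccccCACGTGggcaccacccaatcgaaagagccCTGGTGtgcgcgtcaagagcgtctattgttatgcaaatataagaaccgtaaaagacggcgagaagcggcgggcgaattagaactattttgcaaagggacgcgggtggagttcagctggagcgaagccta
Notch1: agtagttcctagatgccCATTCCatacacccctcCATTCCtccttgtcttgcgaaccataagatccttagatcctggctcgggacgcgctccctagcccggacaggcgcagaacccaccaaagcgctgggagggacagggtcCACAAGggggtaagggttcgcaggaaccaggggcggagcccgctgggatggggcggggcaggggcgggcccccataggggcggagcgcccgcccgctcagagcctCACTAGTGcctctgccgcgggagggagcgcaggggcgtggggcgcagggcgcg
Lfng: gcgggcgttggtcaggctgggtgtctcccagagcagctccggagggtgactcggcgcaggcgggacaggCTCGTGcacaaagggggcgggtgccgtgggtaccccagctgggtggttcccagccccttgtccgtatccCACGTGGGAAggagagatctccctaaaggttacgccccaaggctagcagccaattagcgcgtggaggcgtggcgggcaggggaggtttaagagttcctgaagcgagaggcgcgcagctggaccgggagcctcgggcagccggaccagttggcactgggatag
The first Dll1 start held none of the 4 motifs, and the second held a single N-box. The Nrarp promoter held an E-box whose first base lies at -108 from the start, with N-boxes at -179 and -79. Notch1 held a pair of TEAD cores at -233 and -216 and N-boxes at -108, -3 and -1, the last 2 of which overlap. In Lfng the RBPJ core at -109 overlaps an E-box at -112, and an N-box lies at -181. Over all 32851 promoters of the table, 6.4% held the RBPJ core, 14.7% the TEAD core, 7.2% the E-box and 42.5% the N-box, so an N-box is a common match. A match is only a description of the letters in this window.

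Against LD cells, 4 of the 10 members were higher in both kinds of organoid (Dll1, Hey1, Nrarp and Notch1), 1 was lower (Hes1), and 5 were not called (Notch2, Notch3, Jag1, Jag2 and Lfng). The background is wide: 31.8% of all probe sets were called in organoids from yMaSCs (16.8% higher, 15% lower) and 32.8% in organoids from MaSCs (17.5% higher, 15.4% lower). Over every probe set of the members, 6 of 18 were called in each comparison, 33.3%, which is close to that background. The median log2 difference over the 10 members was -0.10 in organoids from yMaSCs and 0.03 in organoids from MaSCs, against -0.04 and -0.05 over all probe sets. Organoid and LD arrays did not overlap for 6 of 10 members in organoids from yMaSCs (41.3% of all probe sets) and for 5 of 10 in organoids from MaSCs (44.1%). Counted over every probe set of the members, as the shares are, it was 8 of 18 in organoids from yMaSCs and 7 of 18 in organoids from MaSCs. The largest differences were those of Dll1 and Hey1. Both comparisons use the same LD arrays, so they are not independent of each other.

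**Figure D1:**
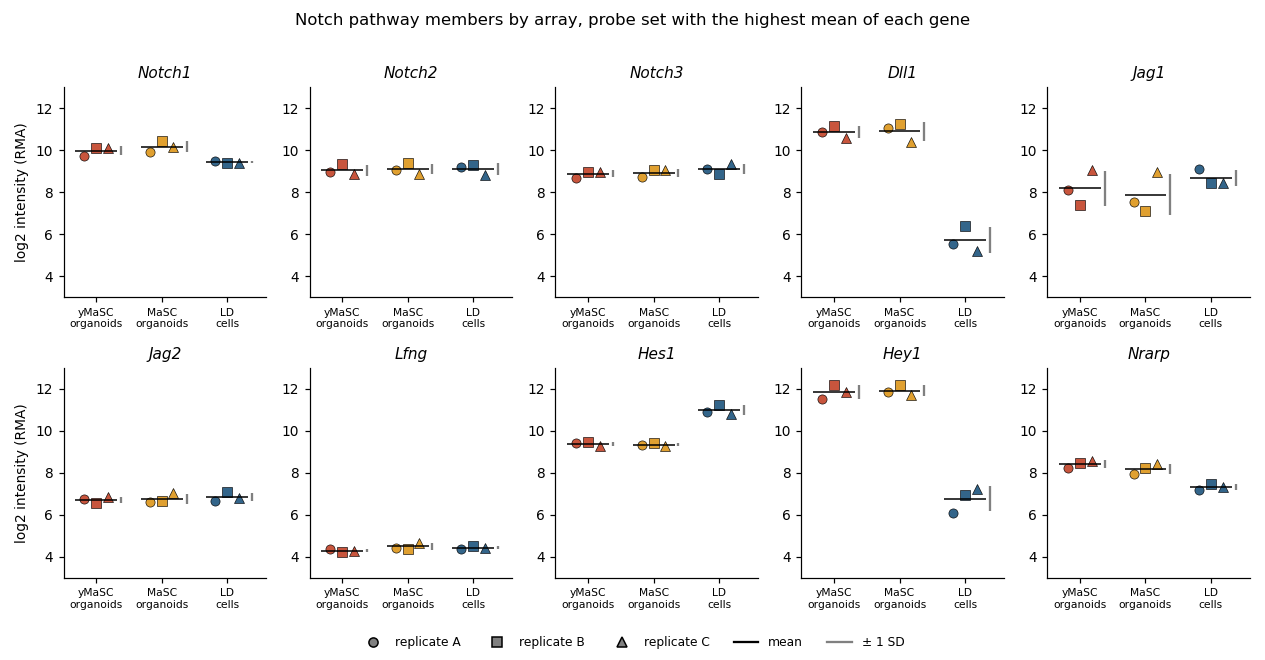
Log2 intensity (vertical axis) of the 10 members on each of the 9 arrays, by kind of sample (organoids from yMaSCs, organoids from MaSCs, LD cells); symbols are replicate letters, black lines group means and grey bars 1 SD on each side. Dll1 and Hey1 lie near 11 and 12 in all 6 organoid arrays and below 7.3 in LD cells, Hes1 runs the other way, and Jag1 is the member with the widest spread among organoids.

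Among the receptors, Notch1, which is known to act in luminal cells, was moderately higher in organoids. It read 9.74, 10.10 and 10.11 in organoids from yMaSCs (A, B and C), 9.90, 10.42 and 10.15 in organoids from MaSCs, and 9.48, 9.39 and 9.40 in LD cells. Every organoid array lay above every LD array. The log2 difference from LD cells was 0.56 in organoids from yMaSCs (SE 0.15, limma adjusted p = 0.0218) and 0.73 in organoids from MaSCs (SE 0.15, adjusted p = 0.0059). The dimmer Notch1 probe set did not share the change: it read 7.22 to 7.60 in organoids from yMaSCs, 7.30 to 7.70 in organoids from MaSCs and 7.27 to 7.58 in LD cells, with differences of 0.01 in organoids from yMaSCs and 0.05 in organoids from MaSCs. The call of Notch1 in organoids from yMaSCs was also lost without array B or C of those organoids (adjusted p = 0.0800 and 0.0654) or without LD array B or C (0.0509 and 0.0558). With the mean of both probe sets neither call held (adjusted p = 0.162 in organoids from yMaSCs and 0.0634 in organoids from MaSCs).

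Notch2 and Notch3, the other receptors among the members, were not called by any probe set. Notch2 averaged 9.04 ± 0.25 in organoids from yMaSCs, 9.12 ± 0.25 in organoids from MaSCs and 9.11 ± 0.27 in LD cells (SD, n = 3 each), and the 95% intervals of the log2 differences ran from -0.49 to 0.37 in organoids from yMaSCs and from -0.42 to 0.44 in organoids from MaSCs. Its dimmer probe set lay at 4.35 to 4.75 on all arrays. Notch3 averaged 8.88 ± 0.16 in organoids from yMaSCs, 8.94 ± 0.19 in organoids from MaSCs and 9.12 ± 0.24 in LD cells (SD, n = 3 each). Its difference was -0.24 in organoids from yMaSCs (interval -0.59 to 0.11) and -0.18 in organoids from MaSCs (-0.54 to 0.17), and by the dimmer probe set it was -0.30 in organoids from yMaSCs and -0.24 in organoids from MaSCs. A change of 2-fold in Notch2 or Notch3 lies outside these intervals, as do some smaller changes, whereas changes within the intervals remain possible.

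Of the ligands, Dll1, a transmembrane Delta-like ligand, showed the largest difference of the 10 members. Its single probe set read 10.88, 11.15 and 10.58 in organoids from yMaSCs (A, B and C) and 11.06, 11.27 and 10.39 in organoids from MaSCs. In LD cells it read 5.54, 6.41 and 5.19. The groups were far apart, and LD array B, the one that stood apart for endothelial and fibroblast markers, was the highest of the LD cells. Organoids from yMaSCs had 35.7-fold more Dll1 than LD cells (log2 difference 5.16, SE 0.33, limma adjusted p = 1.6e-05), and organoids from MaSCs 36.6-fold more (5.19, SE 0.33, adjusted p = 1.4e-05). Without LD array B the log2 difference was 5.50 in organoids from yMaSCs and 5.54 in organoids from MaSCs. The basal markers were higher in the same arrays, and their part in the change of Dll1 was not tested. The genes whose values followed Dll1 most closely over the 9 arrays were B630019K06Rik (Pearson's r = 0.997), Zfp113 (0.997) and 5730409E04Rik (0.996), a description over arrays that share the step between LD cells and organoids.

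Jag1, a Jagged-class ligand, varied more among organoids than between organoids and LD cells. It read 8.10, 7.40 and 9.07 in organoids from yMaSCs (A, B and C), 7.55, 7.11 and 8.97 in organoids from MaSCs, and 9.11, 8.46 and 8.43 in LD cells. The A and B organoids lay below all LD arrays, and the C organoids lay among the LD values. Over all arrays the log2 difference was -0.48 in organoids from yMaSCs (SE 0.53, adjusted p = 0.542) and -0.79 in organoids from MaSCs (SE 0.53, adjusted p = 0.295), neither of which passed. Without both C organoids, organoids from MaSCs passed at -1.34 (adjusted p = 0.0128), while organoids from yMaSCs stood at -0.92 (adjusted p = 0.0529). Both dimmer Jag1 probe sets were not called either, with differences of -0.33 and -0.05 in organoids from yMaSCs and of -0.90 and -0.12 in organoids from MaSCs.

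Jag2, the other Jagged-class ligand, gave different answers by probe set. The brighter one averaged 6.71 ± 0.14 in organoids from yMaSCs, 6.76 ± 0.24 in organoids from MaSCs and 6.84 ± 0.20 in LD cells (SD, n = 3 each), and was not called. The dimmer one read 5.35, 4.79 and 5.59 in organoids from yMaSCs, 4.88, 4.97 and 5.38 in organoids from MaSCs, and 4.04, 3.50 and 4.40 in LD cells. All of its organoid values lay above all of its LD values, by a log2 difference of 1.26 in organoids from yMaSCs (adjusted p = 0.00698) and 1.10 in organoids from MaSCs (adjusted p = 0.0134). Its LD values reach down to the lower quartile of the arrays. Lfng, the fringe among the members, was dim throughout, at 4.24 to 4.67 by its brighter probe set and 3.60 to 4.14 by the other, and was not called. By the dimmer probe set every organoid array lay below every LD array, with differences of -0.31 in organoids from yMaSCs (adjusted p = 0.0577) and -0.29 in organoids from MaSCs (adjusted p = 0.0737).

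**Figure D2:**
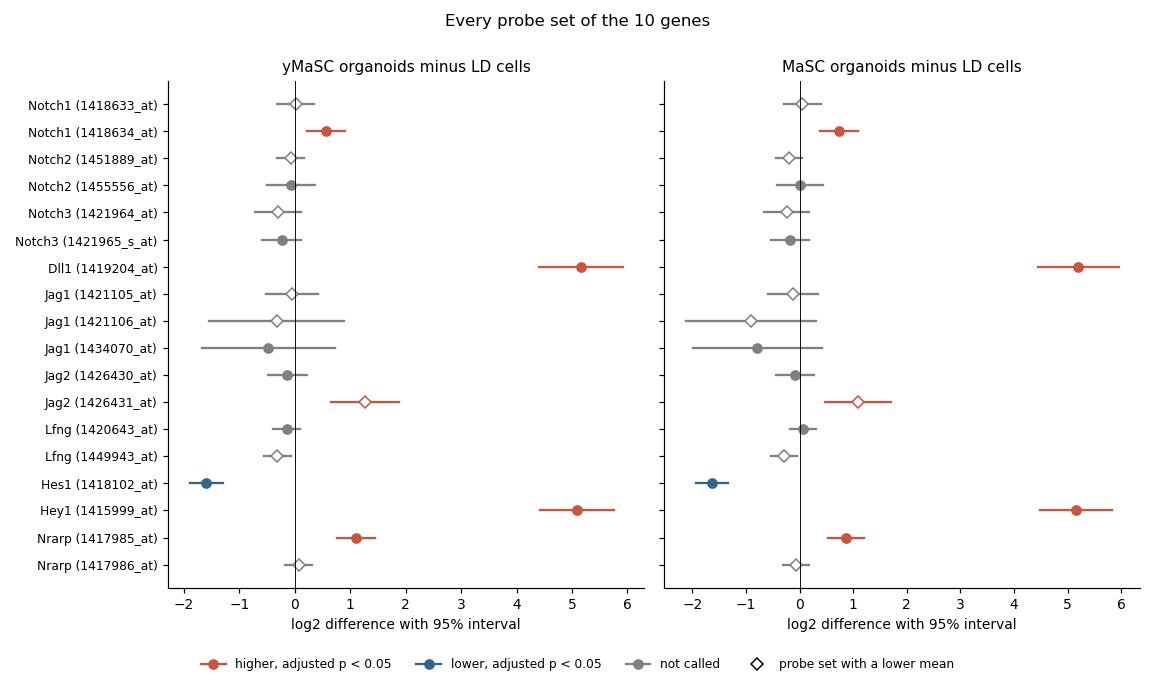
Log2 difference from LD cells (horizontal axis, with its 95% interval) for all 18 probe sets of the 10 genes, in organoids from yMaSCs (left) and from MaSCs (right); filled circles mark the probe set with the highest mean of a gene, open diamonds the others, red and blue the called ones. Notch1, Jag2 and Nrarp each have 1 called and 1 uncalled probe set, and the intervals of Jag1 are the widest.

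The targets split. Hey1, a transcriptional repressor of the Hairy and Enhancer-of-split-related family, read 11.51, 12.18 and 11.83 in organoids from yMaSCs (A, B and C), 11.83, 12.20 and 11.71 in organoids from MaSCs, and 6.09, 6.96 and 7.22 in LD cells. The groups were separated by more than 4 log2 units. Organoids from yMaSCs had 33.9-fold more Hey1 than LD cells (log2 difference 5.08, SE 0.29, limma adjusted p = 9.4e-06), and organoids from MaSCs 35.7-fold more (5.16, SE 0.29, adjusted p = 8.4e-06). Without LD array B the differences were 5.18 in organoids from yMaSCs and 5.26 in organoids from MaSCs. Its pattern over the 9 arrays was most like those of Bloc1s5 (r = 0.999), Zfp512 (0.999) and 4933431E20Rik (0.998).

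Hes1, a repressor of the Hes family and a widely used readout of Notch activity, went the opposite way to Hey1. It read 9.40, 9.47 and 9.27 in organoids from yMaSCs, 9.33, 9.42 and 9.28 in organoids from MaSCs, and 10.90, 11.24 and 10.78 in LD cells. The 6 organoid arrays lay within 9.27 to 9.47, and all LD arrays were above 10.7. Hes1 was 3.02-fold lower in organoids from yMaSCs than in LD cells (log2 difference -1.59, SE 0.13, limma adjusted p = 4.6e-05) and 3.1-fold lower in organoids from MaSCs (-1.63, SE 0.13, adjusted p = 3.8e-05). Without LD array B, the highest for Hes1, the difference was -1.46 in organoids from yMaSCs and -1.50 in organoids from MaSCs. The leukocyte markers summed to 157 to 307 in organoids from yMaSCs and 168 to 204 in organoids from MaSCs, against 986, 839 and 574 in LD arrays A, B and C. The fibroblast and pericyte markers summed to 802 to 1350 in organoids from yMaSCs and 1076 to 2448 in organoids from MaSCs. In LD arrays A, B and C they summed to 1503, 6248 and 2265, so organoids from MaSCs overlapped LD cells. Dcn, the brightest of them (log2 value 12.10 in LD array B), was not called. Of these 8 fibroblast and pericyte markers, 3 were lower in each kind of organoid than in LD cells, 1 was higher and 4 were not called. The lower ones were Col3a1 (-4.79 in organoids from yMaSCs, -4.75 in organoids from MaSCs), Col1a2 (-3.23 and -3.00) and Lum (-2.28 and -2.59). Pdgfra was the higher one, by 2.10 in organoids from yMaSCs and 2.53 in organoids from MaSCs. The part of these cell types in the level of Hes1 was not tested. The closest patterns were those of Mboat1 (r = 0.998), Rcan1 (0.998) and Nfkb2 (0.997).

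Nrarp, an ankyrin-repeat protein that is induced by Notch and limits it, was higher in organoids by 1 of its 2 probe sets. The brighter one read 8.22, 8.46 and 8.58 in organoids from yMaSCs, 7.93, 8.22 and 8.40 in organoids from MaSCs, and 7.19, 7.46 and 7.30 in LD cells, with no overlap between organoids and LD cells. The log2 difference was 1.10 in organoids from yMaSCs (SE 0.15, limma adjusted p = 0.00064) and 0.87 in organoids from MaSCs (SE 0.15, adjusted p = 0.0022). Without LD array B it was 1.18 in organoids from yMaSCs and 0.94 in organoids from MaSCs. The dimmer probe set read 7.04, 7.20 and 7.02 in organoids from yMaSCs, 6.78, 7.02 and 7.07 in organoids from MaSCs, and 7.02 in each of the 3 LD arrays, with differences of 0.07 in organoids from yMaSCs and -0.06 in organoids from MaSCs. The closest patterns to the brighter probe set were those of Atp23 (r = 0.982), Oxld1 (0.979) and Ccdc85b (0.978).

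Organoids from yMaSCs were also set against organoids from MaSCs, which asks how alike the converted and the native cells are once both grow as organoids. None of the 10 members and none of the 18 probe sets was called (limma adjusted p = 1 for each), and over all 45037 probe sets 0 were called (0%). An unadjusted p under 0.05 was found for 325 probe sets, and for 1646 with the letter as a block in the 6 organoid arrays. Both counts are below the share of 0.05 that would arise on average without any difference. The 2 kinds of organoid did not overlap for 1 of 10 members, Lfng, at 4.24 to 4.36 in organoids from yMaSCs and 4.39 to 4.67 in organoids from MaSCs, against 4.65% of all probe sets. Its other probe set overlapped, at 3.70 to 3.86 in organoids from yMaSCs and 3.60 to 3.92 in organoids from MaSCs. Over every probe set of the members, 2 of 18 did not overlap, and the other was the dimmer one of Notch2. The log2 difference was -0.04 for Dll1 (95% interval -0.79 to 0.72), -0.07 for Hey1 (-0.74 to 0.59) and 0.04 for Hes1 (-0.26 to 0.33). For Notch1 it was -0.17 (-0.52 to 0.17) and for Nrarp 0.24 (-0.10 to 0.58). The intervals of 9 members lay within 1 log2 on either side. Jag1 was the exception, at 0.31 (-0.89 to 1.51). These intervals come from the fit without the letter, so the spread of Jag1 among letters counts in its interval. Within each letter, organoids from yMaSCs were above organoids from MaSCs for Jag1 by 0.55, 0.29 and 0.10 (A, B and C) and for Nrarp by 0.29, 0.24 and 0.18. They were below organoids from MaSCs in each letter for Notch1 (-0.16, -0.32 and -0.04), Notch2 (-0.14, -0.05 and -0.03), Notch3 (-0.03, -0.06 and -0.08) and Lfng (-0.04, -0.15 and -0.42). All of these are the brightest probe sets. The dimmer Notch2 probe set was higher in organoids from yMaSCs (4.48, 4.62 and 4.48) than in organoids from MaSCs (4.44, 4.40 and 4.35). The dimmer ones of Notch1, Notch3, Nrarp and Lfng, and the dimmest of Jag1, changed sign between letters. How many of all probe sets keep the same sign in each letter was not counted. With the letter as a block in the 6 organoid arrays, limma gave an unadjusted p of 0.032 for Jag1, 0.027 for Nrarp, 0.110 for Notch1 and 0.099 for Lfng, and an adjusted p of 0.966 for each.

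Among the organoids, Jag1 differed by letter. In a limma F test of the letter over the 6 organoid arrays, with the kind of organoid in the model, 3.21% of all probe sets were called. Of the 10 members, Jag1 alone was called (adjusted p = 0.0121), and its C organoids exceeded the mean of A and B by 1.48 log2. Its next brightest probe set, which read 6.31, 5.50 and 7.15 in organoids from yMaSCs and 5.63, 4.83 and 6.77 in organoids from MaSCs, was called too (adjusted p = 0.00934, C above A and B by 1.39). The dimmest had the highest values in the C organoids of both kinds too and was not called (adjusted p = 0.0820). Dll1 was lowest in the C organoids of both kinds, without passing (adjusted p = 0.0772). Of the cell type markers, only Oxtr (basal) and Pgr (luminal) passed the letter F test by their probe set with the highest mean. The linear sums of the 8 basal markers were 6227 in C organoids from yMaSCs and 10582 in C organoids from MaSCs, against 3087 to 3773 in the A and B organoids, but Oxtr was the 1 basal marker of 8 that passed the letter F test (adjusted p = 0.0118). Acta2, with a log2 value of 12.37 in C organoids from MaSCs, missed it (adjusted p = 0.0527), and Trp63 (adjusted p = 0.516) and Mylk (0.753) were not highest in the C array of organoids from yMaSCs. Of the 9 luminal markers Pgr passed (adjusted p = 0.0472, C above A and B by 1.40). The mean log2 value of the 9 in organoids from MaSCs was 11.76 in C, against 11.15 in A and 11.16 in B. Their linear sums did not set C apart from B. These were 35676, 42783 and 42788 in organoids from MaSCs (A, B and C) and 38118, 41493 and 42107 in organoids from yMaSCs. The fibroblast and pericyte sum in organoids from MaSCs was 2448 in C, against 1174 in A and 1076 in B. In organoids from yMaSCs it was 1350 in C, against 1316 in A and 802 in B. Dcn, the brightest of these markers, read 11.06 in C organoids from MaSCs, against 9.78 in A and 9.62 in B, and missed the letter F test (adjusted p = 0.151). Col1a1 was lowest in that C array (3.97, against 4.28 in A and 4.12 in B). The part of these markers in the level of Jag1 was not tested.

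**Figure D3:**
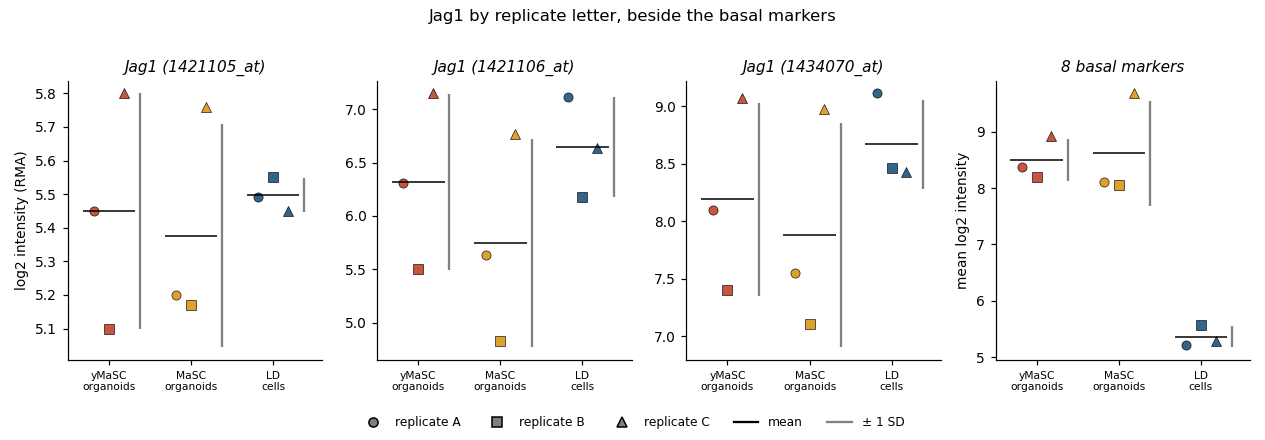
Log2 intensity of the 3 Jag1 probe sets, and mean log2 intensity of 8 basal markers, on each of the 9 arrays (separate vertical scales; symbols are replicate letters, black lines group means, grey bars 1 SD on each side). The C organoids are the highest of each kind in all 4 panels, and by the brightest Jag1 probe set they lie within the range of LD cells, whereas the basal markers are lowest in LD cells.

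The members belong to a longer pathway, and of 60 further genes of it 56 were measured. In organoids from yMaSCs 16 were higher, 8 lower and 32 not called (median log2 difference 0.06), and in organoids from MaSCs 18 were higher, 8 lower and 30 not called (median 0.11). The share called was 42.9% in organoids from yMaSCs and 46.4% in organoids from MaSCs, where over all genes with 1 probe set each (p adjusted over genes) it was 35.9% in organoids from yMaSCs and 37.3% in organoids from MaSCs. In both comparisons the same 15 were higher (Notch4, Poglut1, Pofut1, Aph1a, Aph1b, Psenen, Mib1, Mib2, Ep300, Kat2a, Kat2b, Snw1, Cir1, Tle1 and Hes6) and the same 8 lower (Mfng, Adam10, Psen2, Dtx2, Dtx4, Maml1, Hes5 and Heyl). Hey2 was called in organoids from yMaSCs alone and Rfng, Itch and Ctbp1 in organoids from MaSCs alone, and none of the 56 was called between the kinds of organoid. When each array was left out in turn, 10 of the 15 higher and 5 of the 8 lower genes kept both calls. Pofut1 lost its call in organoids from yMaSCs without any one of 7 arrays, all but array C of those organoids and LD array C (adjusted p 0.0517 to 0.114). Ep300 lost it there without array A or B of either kind of organoid or LD array B or C (0.0526 to 0.121), and in organoids from MaSCs without their array A (0.0667) or B (0.0516). Mib1 lost it in organoids from yMaSCs without their array B or C, array B of the organoids from MaSCs, or LD array B or C (0.0511 to 0.103), and in organoids from MaSCs without their array B (0.0569). Mib2 lost it in organoids from yMaSCs without their array B (0.0509), and Psen2 in organoids from MaSCs without their array A or C or LD array B or C (0.0522 to 0.0598). Itch and Ctbp1 lost theirs without any one of 6 and of 5 arrays. With the letter as a block, Pofut1 (0.0528) and Mib1 (0.0553) lost the call in organoids from yMaSCs. With the mean of all probe sets Snw1 lost both calls (0.147 in organoids from yMaSCs, 0.121 in organoids from MaSCs). Alternatives other than the loss of a single array also ended the calls of Aph1a (adjusted p up to 0.0633) and Pofut1 (0.0565) in organoids from MaSCs. They ended those of Adam10 (up to 0.0758) and Psen2 (0.0531) in organoids from yMaSCs. Mib1 reached 0.759 in organoids from yMaSCs and 0.848 in organoids from MaSCs. Losses of Notch4, Mfng and Hes5 are given with their values.

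Upstream of the receptors, none of the 4 other ligands measured was called, with Dll4 at 0.29 in organoids from yMaSCs and 0.34 in organoids from MaSCs. Dll3, near 3 on all arrays, stood at -0.13 in organoids from yMaSCs and -0.09 in organoids from MaSCs. Without LD array A, Dll4 passed at 0.44 in organoids from yMaSCs (adjusted p = 0.0369) and at 0.49 in organoids from MaSCs (adjusted p = 0.0239). Its values were dim, at 4.26 to 4.51 in organoids and 3.79 to 4.39 in LD cells. Over all arrays its dimmer probe set ran the other way, with means of 3.60 in organoids from yMaSCs, 3.61 in organoids from MaSCs and 3.76 in LD cells. Notch4, a receptor best known from endothelium, was higher by 1.03 in organoids from yMaSCs (adjusted p = 0.00557) and by 0.86 in organoids from MaSCs (adjusted p = 0.0131). It lay at 4.85 to 5.35 in organoids from yMaSCs, 4.79 to 5.29 in organoids from MaSCs and 3.91 to 4.50 in LD cells, whereas its 2 dimmer probe sets lay at 2.68 to 3.67. Without array A of the organoids from MaSCs, the call of Notch4 in those organoids was lost (adjusted p = 0.0521). Poglut1, an enzyme that adds glucose to the receptors, had the largest difference of the 56, at 1.72 in organoids from yMaSCs (adjusted p = 3.2e-05) and 1.74 in organoids from MaSCs (adjusted p = 2.7e-05). It read 9.06, 9.06 and 9.25 in organoids from yMaSCs, 9.05, 9.05 and 9.33 in organoids from MaSCs, and 7.21, 7.42 and 7.57 in LD cells. Of the other fringes, Mfng was lower, at -0.42 in organoids from yMaSCs (adjusted p = 0.0329) and -0.41 in organoids from MaSCs (adjusted p = 0.0354). Rfng stood at 0.44 in organoids from yMaSCs (adjusted p = 0.0556) and at 0.48 in organoids from MaSCs (adjusted p = 0.0401).

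**Figure D4:**
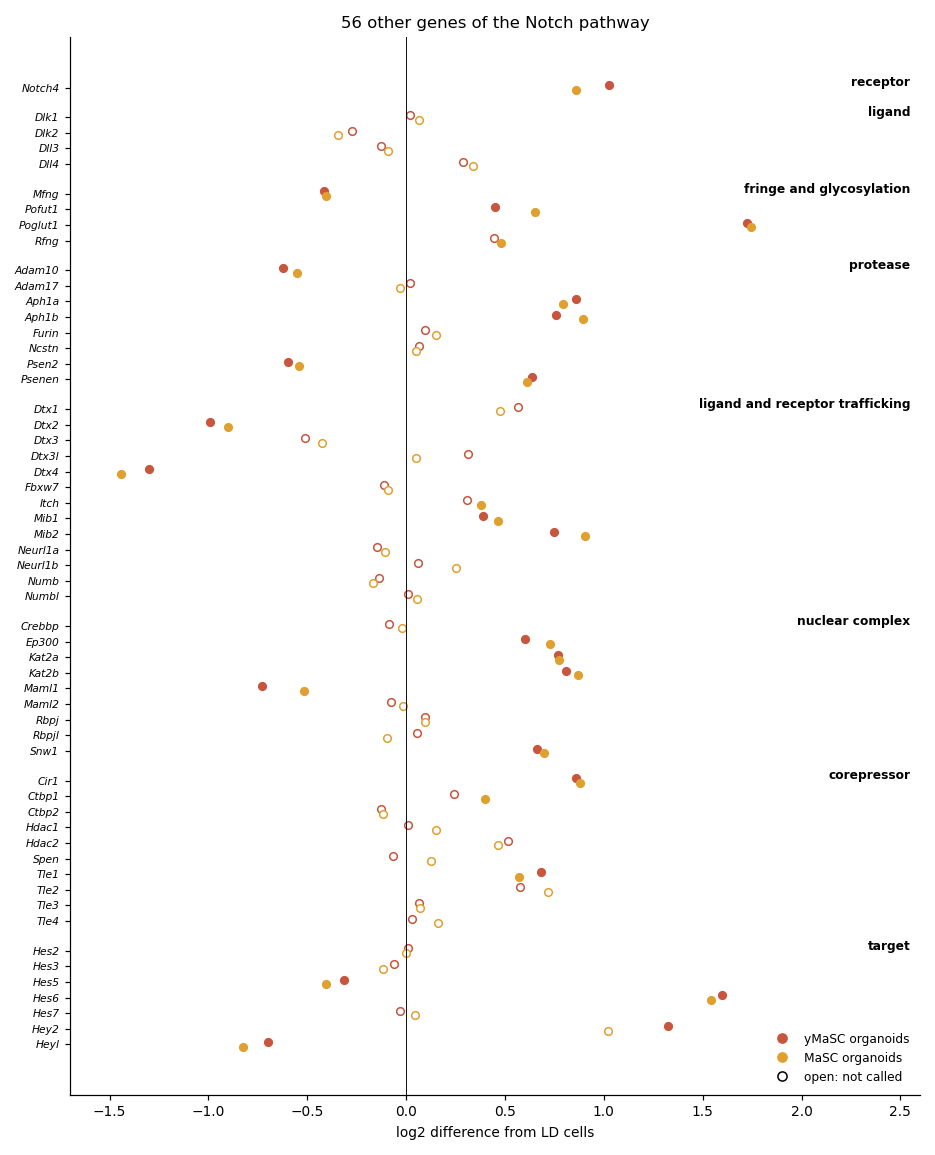
Log2 difference from LD cells (horizontal axis) of the 56 other pathway genes, grouped by role, in organoids from yMaSCs (red) and from MaSCs (yellow); filled circles were called and open circles were not. The kinds of organoid lie close to each other for each gene, with Poglut1, Hes6 and Hey2 at the high end and Dtx4 and Dtx2 at the low end.

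Inside the cell, the Deltex-family ubiquitin ligases Dtx4 and Dtx2 were lower. Dtx4 stood at -1.30 in organoids from yMaSCs (adjusted p = 0.00566) and -1.44 in organoids from MaSCs (adjusted p = 0.00322), and Dtx2 at -0.99 in organoids from yMaSCs (adjusted p = 0.00127) and -0.90 in organoids from MaSCs (adjusted p = 0.00202). The corepressor Cir1 was higher by 0.86 in organoids from yMaSCs and 0.88 in organoids from MaSCs, and the acetyltransferase Kat2b by 0.81 in organoids from yMaSCs and 0.87 in organoids from MaSCs. Rbpj itself was not called by its brightest probe set, which differed by 0.10 in each kind of organoid (interval -0.23 to 0.42 in each). Its next brightest probe set was lower, at -0.63 in organoids from yMaSCs (adjusted p = 0.0154) and -0.84 in organoids from MaSCs (adjusted p = 0.00362).

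The other Hes and Hey genes were as mixed as the members. Hes6, which in mice counteracts Hes1, was higher by 1.60 in organoids from yMaSCs (adjusted p = 0.00238) and by 1.54 in organoids from MaSCs (adjusted p = 0.00274). It lay at 8.16 to 8.30 in organoids from yMaSCs, 8.12 to 8.20 in organoids from MaSCs and 6.11 to 7.40 in LD cells. Heyl was lower, at -0.70 in organoids from yMaSCs (adjusted p = 0.00358) and -0.83 in organoids from MaSCs (adjusted p = 0.0014). It was dim, at 3.92 to 4.35 in organoids and 4.80 to 5.08 in LD cells. The next brightest probe set read 4.07 to 4.12 in organoids from yMaSCs, 3.94 to 4.04 in organoids from MaSCs and 4.07 to 4.18 in LD cells. The dimmest lay at 3.57 to 3.75 in organoids and 3.90 to 4.21 in LD cells. Hes5, near the lower quartile throughout, was lower by its brighter probe set, at -0.31 in organoids from yMaSCs (adjusted p = 0.0394) and -0.41 in organoids from MaSCs (adjusted p = 0.0123). Its dimmer probe set overlapped, at 3.02 to 3.22 in organoids from yMaSCs, 2.88 to 3.19 in organoids from MaSCs and 3.10 to 3.14 in LD cells. The call of Hes5 in organoids from yMaSCs was lost without any one array of those organoids, without array A or C of the organoids from MaSCs, or without LD array B or C (adjusted p 0.0578 to 0.119), and in organoids from MaSCs without their array A (0.0555). The call of Mfng in organoids from yMaSCs was lost without their array A or B, array A or B of the organoids from MaSCs, or LD array C (0.0514 to 0.117), and in organoids from MaSCs without their array A or B, array A of the organoids from yMaSCs, or LD array C (0.0527 to 0.116). That of Rfng in organoids from MaSCs was lost without any one of 7 of the 9 arrays, all but array C of the organoids from yMaSCs and LD array C (0.0576 to 0.134). Hey2 read 4.46, 4.84 and 6.02 in organoids from yMaSCs, 4.17, 4.60 and 5.64 in organoids from MaSCs, and 3.82, 3.62 and 3.90 in LD cells. Its difference passed in organoids from yMaSCs (1.33, adjusted p = 0.0490) and missed in organoids from MaSCs (1.02, adjusted p = 0.114), which does not show that the kinds of organoid differ. The call in organoids from yMaSCs was lost without their array B or C, array B of the organoids from MaSCs, or any one LD array (adjusted p 0.0689 to 0.123). Like Jag1, Hey2 was highest in the C organoids of both kinds (letter F test, adjusted p = 0.00877).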

How the data were processed

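RNA of organoids from yMaSCs, organoids from MaSCs and LD cells was measured on 9 Affymetrix mouse arrays, 3 of each kind. The authors computed log2 values by RMA (version not given in the sources used here) and deposited them to 2 decimals, with 0 columns of other samples. The number of arrays limits the precision. The platform annotation gave 34945 of 45037 probe sets 1 gene, 932 several and 9160 none; 64 control probe sets were left out. With R 4.3.3 and limma 3.58.1, a model of the 3 groups was fitted to all 45037 probe sets, without a filter on low values, and p was adjusted over all of them; the code was tested on simulated data. All 10 members were named with every probe set. Other pathway genes were named if called, with values for the 8 largest and for receptors, ligands, fringes and targets of the same families. Members, lists and tests were chosen with earlier results of these data known. Deviations of organoids of the same letter correlated (r = 0.554, 0.523 and 0.612), so the letters, whose meaning beyond biological replica is not given, pair the organoids; between LD cells and organoids of the same letter r was -0.07 to 0.026. Alternatives were the letter as a fixed or random block, 1 probe set or the mean of all probe sets a gene, a filter at the median level, 2 other normalizations, a trended and robust prior, fewer groups, and arrays left out.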

Additional observations from a re-analysis of the deposited data

How the results depend on the processing

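The directions and calls of Dll1, Hey1, Hes1 and Nrarp against LD cells held under all alternatives, with log2 differences in organoids from yMaSCs of 4.90 to 5.50 for Dll1, 4.75 to 5.32 for Hey1, -1.71 to -1.46 for Hes1 and 0.58 to 1.20 for Nrarp. The count of members called ranged from 4 to 5 in organoids from yMaSCs and from 4 to 6 in organoids from MaSCs, and it stayed 0 between the kinds of organoid. With the letter as a replicate block the counts of members called were 5, 5 and 0, and the block changed no call of a member. The filter at the median level left out 1 member, Lfng. With a trended and robust prior, 2 members were called by letter among the organoids, since Dll1 (adjusted p = 0.0305) joined Jag1. With the mean of all probe sets, Jag2 in organoids from yMaSCs turned to 0.56 (adjusted p = 0.0345) because its dimmer probe set was then included, and Mib1 turned to -0.04 in organoids from yMaSCs. Cyclic loess ended the call of Notch1 in organoids from yMaSCs (adjusted p = 0.0638), and the cause was not tested. Of 636 repeats over the members, 625 kept direction and call, 8 lost a call (all of Notch1), 2 gained one and 1 turned; 31 of those that kept their uncalled state had another sign. For the other pathway genes, 1009 of 1126 kept them, 109 lost a call and 7 gained one.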

Other observations

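The identical reading of 7.02 for the second Nrarp probe set on 5 of 9 arrays, all 3 LD arrays among them, is shared with other probe sets: 993 of 45037 (2.2%) hold the same value on 5 or more arrays, and 163 (0.36%) hold it on all 3 LD arrays. Yap1, the gene whose vector was used to make yMaSCs, has 2 probe sets. The brighter read 10.46 to 10.71 in organoids from yMaSCs, 10.69 to 10.78 in organoids from MaSCs and 9.69 to 10.21 in LD cells, and the other 7.28 to 7.90 in organoids from yMaSCs, 7.38 to 7.52 in organoids from MaSCs and 8.03 to 8.36 in LD cells. They disagree on the direction against LD cells, and in both the 2 kinds of organoid overlap.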
